A study of Mus musculus with 15 samples.

Results

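The 39 genes described here encode the coat of the lipid droplet and the enzymes, carriers and transcription factors that make, store, take up and break down fatty acids and triglycerides. They were listed by symbol, with no measured value in the rule, and all 39 were found by Ensembl identifier among the 65964 entries of the authors' deposited expression table. The table gives TPM, the abundance of a gene's transcripts scaled for their length and for the library's total, for 15 RNA sequencing libraries of mouse brain. The labels describe C57BL/6 mice and give all 15 libraries, the untreated ones included, the tag of a temporal lobe epilepsy model induced with KA. Kainic acid (KA) is an agonist of glutamate receptors that provokes seizures. Treatment was given as none, as KA, or as KA and APOE, and each library's name also holds an L or an H, which no label explains. The 5 groups of 3 libraries are therefore called CTRL_L (untreated, L), KA_L and KA_H (KA), and APOE_L and APOE_H (KA and APOE). The labels give no age, sex or dose, do not explain how APOE was used or altered, and name no untreated H group. Whether a group's 3 libraries stem from 3 mice is not stated, and p-values thus reflect the scatter among these samples alone, which may be technical.

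A lipid droplet is a store of triglycerides and sterol esters under a single layer of phospholipids, coated by perilipins. Fatty acids reach it from outside the cell, after release from lipoproteins by lipoprotein lipase, or from synthesis out of cytosolic acetyl-CoA, and they are coupled to CoA before they are joined to glycerol or lengthened and desaturated. Lipases release them again. In the brain, glia hold most droplets, and apolipoprotein E, the product of Apoe, carries lipid between glia and neurons.

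Levels differed widely between libraries of a group, and an exact 0 in such a table can be a failed estimate. Pgk1, 1 of 10 housekeeping genes examined, read 0 in 2 libraries and up to 257 TPM elsewhere, so a gene at 0 is called listed at 0 and its libraries are given one by one. Apoe was lowest in the libraries labelled with APOE, between 0 and 0.71 TPM in APOE_L and between 6.49 and 144 TPM in APOE_H. It was at 161 to 889 TPM in CTRL_L and 1969.58 to 16636 TPM in the 6 KA libraries. All 10 microglia markers reached 1 TPM in all 15 libraries, with summed levels of 6227 to 24809 TPM. The tissue is labelled brain, yet the 7 neuron markers summed to at most 66.5 TPM and none of them reached 1 TPM in every library. Of 9 astrocyte markers only Slc1a3 did. Markers of the fat cell, which also uses many of the 39 genes, summed to at most 21.97 TPM, and Adipoq and Car3 were listed at 0 in all 15. In bulk RNA of this kind, fewer cells of a type and less RNA per cell cannot be told apart.

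Promoter sequences are shown for the 4 genes that were higher in H than in L, to set their upstream sequence beside their levels. They are the bases before the RefSeq transcription start (GRCm38.p6), 5′ to 3′ on the gene's strand, and capitals mark CCAAT boxes (CCAAT or its reverse complement) and GC boxes (GGGCGG or its reverse complement). Plin3 lies at chr17:56290512-56290761 on the minus strand, Elovl6 at chr3:129532136-129532354 on the plus strand, Acsl3 at chr1:78657575-78657824 on the plus strand and Cd36 at chr5:17835897-17836146 on the minus strand. The Elovl6 window was shortened by 31 bases that fall in an annotated exon of the gene.
Plin3: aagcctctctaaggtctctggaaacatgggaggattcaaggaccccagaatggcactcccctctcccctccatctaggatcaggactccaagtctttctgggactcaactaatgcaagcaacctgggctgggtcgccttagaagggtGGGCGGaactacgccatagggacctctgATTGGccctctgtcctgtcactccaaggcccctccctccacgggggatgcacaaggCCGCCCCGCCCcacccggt
Elovl6: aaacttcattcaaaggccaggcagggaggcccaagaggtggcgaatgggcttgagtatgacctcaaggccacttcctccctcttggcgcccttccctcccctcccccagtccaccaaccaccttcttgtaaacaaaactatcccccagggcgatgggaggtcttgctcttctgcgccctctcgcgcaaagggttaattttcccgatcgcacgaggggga
Acsl3: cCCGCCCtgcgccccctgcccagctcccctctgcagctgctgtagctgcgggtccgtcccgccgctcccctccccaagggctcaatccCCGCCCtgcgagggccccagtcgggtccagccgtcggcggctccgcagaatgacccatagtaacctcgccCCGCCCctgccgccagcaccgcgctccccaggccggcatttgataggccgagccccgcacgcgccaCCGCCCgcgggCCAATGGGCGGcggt
Cd36: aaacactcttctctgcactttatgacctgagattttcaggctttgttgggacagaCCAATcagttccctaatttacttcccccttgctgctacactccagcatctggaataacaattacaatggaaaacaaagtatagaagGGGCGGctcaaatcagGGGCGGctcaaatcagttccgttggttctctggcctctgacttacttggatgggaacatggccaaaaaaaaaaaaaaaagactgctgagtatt
Plin3 held 1 CCAAT box and 3 GC boxes, Acsl3 1 and 5, Cd36 1 and 2, and the Elovl6 window held neither. In Plin3 the last 2 GC boxes share 1 base. These motifs are common: CCAAT was found in 33.8% and GGGCGG in 32.7% of the 32851 mouse promoter windows of 250 bases searched on both strands. RefSeq windows were matched by symbol for 32 of the 39 genes, 46 windows in all, and Lpl had none. Across the 46, the sterol regulatory element TCACNCCAC, the site of the lipogenic factor SREBP-1, was found in 2 (Acsl1 and Mlxipl), against 1.05% of all windows. CACGTG, the core of the carbohydrate response element read by ChREBP, was in 5 (Elovl5, Lipe, Lpin2, Mgll and Mlxipl), against 6.02%. The peroxisome proliferator response element (AGGTCA repeated after 1 base) was in none of the 46 and in 0.0335% of all windows. These are matches of letters, and binding of the factors was not measured.

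The set was detected unevenly. Only 6 genes reached 1 TPM in all 15 libraries: Mgll, Acsl5, Acly, Acaca, Scd2 and Mlxipl. Another 25 were listed at 0 in at least 1 library, and 131 of the 585 values, 22.4%, were 0. For testing, an entry had to reach 1 TPM in at least 3 of the 15 libraries, which 34 of the 39 genes and 17505 entries in all did. The 5 not tested were Plin4 and Plin5, perilipins of fat and muscle, G0s2, an inhibitor of adipose triglyceride lipase, Acacb, the mitochondrial acetyl-CoA carboxylase, and Scd1, a stearoyl-CoA desaturase. G0s2 was above 0 in 1 library only (7.31 TPM, APOE_H replicate 2), and Plin4 never passed 0.18 TPM. Plin5 peaked at 4.44 TPM in APOE_H replicate 2, Acacb at 13.4 TPM in KA_H replicate 3, and Scd1 at 10.3 TPM in KA_H replicate 1.

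**Figure D1:**
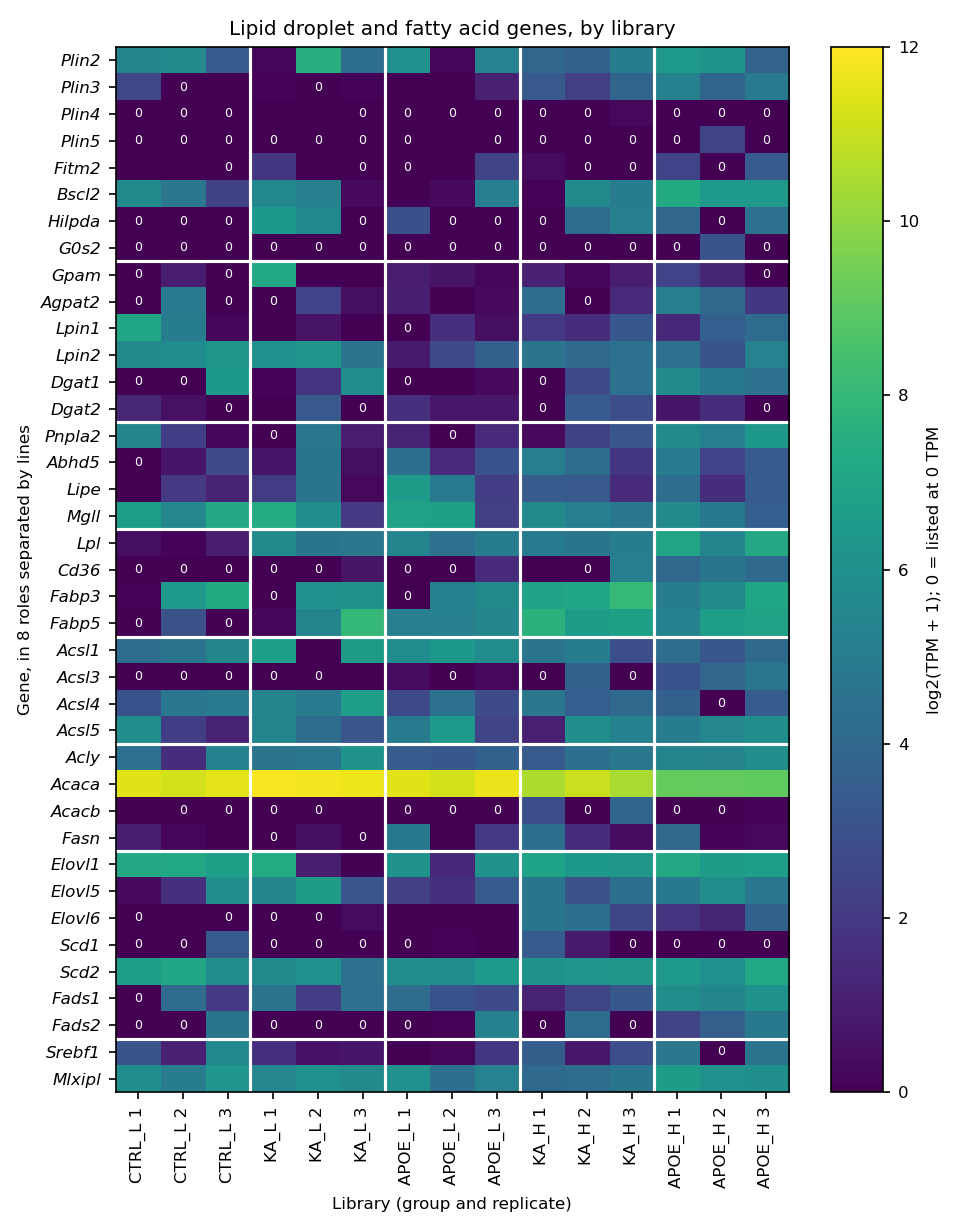
Levels of the 39 genes (rows, by role) in the 15 libraries (columns, by group), as log2(TPM + 1) on the colour scale. Acaca is the brightest row, and many other rows alternate between bright and dark cells among libraries of one group.

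Acaca, the cytosolic acetyl-CoA carboxylase that makes malonyl-CoA for fatty acid synthesis, stood far above the rest of the set and was lower in H libraries than in L libraries. Its mean over the 15 libraries was 2242 TPM, rank 42 among all entries, while the next gene of the set, Elovl1, averaged 89.6 TPM. Acaca was at 2696, 2318 and 2890.1 TPM in CTRL_L, 3763, 3537 and 3326 TPM in KA_L and 2814, 2395 and 3243 TPM in APOE_L. It was at 1463, 2089 and 1422 TPM in KA_H and 577, 558 and 531 TPM in APOE_H. Every H library lay below every L library, and every APOE_H library lay below every KA_H library. The group means were 2635 ± 291 TPM in CTRL_L, 3542 ± 219 in KA_L, 1658 ± 374 in KA_H, 2818 ± 424 in APOE_L and 555 ± 23.4 in APOE_H (SD, n = 3 each). KA_L was thus 2.14-fold above KA_H, and APOE_L 5.07-fold above APOE_H.

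**Figure D2:**
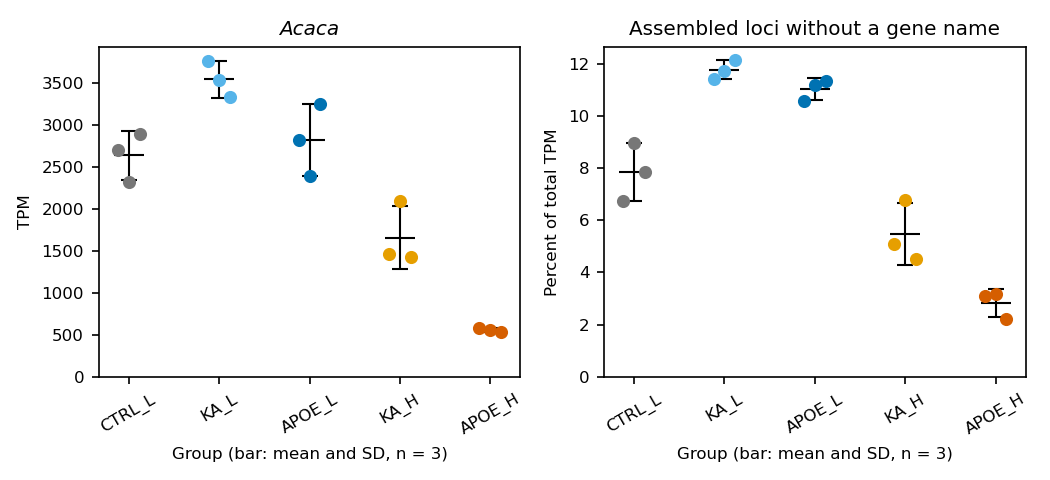
Acaca in TPM (vertical axis, from 0) by group, with 1 point per library and the group mean ± SD. The 3 APOE_H libraries sit between 531 and 577 TPM, the 3 KA_H libraries between 1422 and 2089, and the 9 L libraries at 2318 or above.

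Differences were tested with limma on log2(TPM + 1) in 1 fit of all 15 libraries and all 17505 entries, with Benjamini-Hochberg adjustment over all of them and a threshold of 0.05. A log2 fold change on this scale understates the change of a low gene. For Acaca the log2 fold change was -1.12 (SE 0.23, adjusted p = 0.0245) in KA_H against KA_L and -2.33 (SE 0.23, adjusted p = 5.36e-05) in APOE_H against APOE_L. Averaged over KA and APOE, H against L gave -1.72 (SE 0.16, adjusted p = 1.60e-05). Acaca also fell in APOE_H against KA_H, by 1.55 on the log2 scale (SE 0.23, adjusted p = 0.00762). It did not pass the test in KA_L against CTRL_L (0.43, adjusted p = 0.516), in KA_H against CTRL_L (-0.68, adjusted p = 0.286) or in APOE_L against KA_L (-0.34, adjusted p = 0.813). The interaction, which asks whether the H to L difference itself differs between APOE and KA, was -1.21 with an adjusted p of 0.258. The difference between KA_H and KA_L lost its call in 7 of 13 other settings, among them leaving out KA_L replicate 1 or 3 or KA_H replicate 1 or 3 (adjusted p 0.0600 to 0.105).

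Acaca moved together with the share of TPM that the table gives to assembled loci without a gene name: it took 2.83% ± 0.542 in APOE_H and 5.46% ± 1.18 in KA_H, but 7.84% ± 1.11 in CTRL_L, 11.03% ± 0.414 in APOE_L and 11.8% ± 0.362 in KA_L (SD, n = 3 each). The part of this in the Acaca differences was not tested. GENCODE M21 lists 9 transcripts of Acaca of 431 to 9513 bases, and a TPM per gene does not show which of them gave the reads. On the opposite strand Acaca overlaps Gm11437, which was listed at 0 in 11 libraries and reached 326 TPM in APOE_L replicate 1. Whether reads were counted by strand is not given in the sources used here, so reads of 2 overlapping genes may not have been separated. Among the 39 genes, 10 overlap an annotated gene with a mean of at least 1 TPM, in each case on the opposite strand.

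The enzymes before and after Acaca in the pathway passed no test. Acly, ATP citrate lyase, which supplies the cytosolic acetyl-CoA, was at 21.99, 1.95 and 38.1 TPM in CTRL_L, 23.6, 25.4 and 69.9 TPM in KA_L and 10.2, 8.60 and 12.4 TPM in APOE_L. In the H libraries it was at 9.69, 19.6 and 27.3 TPM in KA_H and 42.3, 40.4 and 59.4 TPM in APOE_H. Its APOE_H libraries were above those of KA_H whereas its APOE_L libraries were below those of KA_L. Fasn, the synthase that builds palmitate from malonyl-CoA, was near 0 in most libraries, with 1.01, 0.14 and 0.01 TPM in CTRL_L, 0, 0.40 and 0 TPM in KA_L and 28.2, 0.02 and 3.06 TPM in APOE_L. It read 20.4, 1.99 and 0.31 TPM in KA_H and 15.6, 0.07 and 0.21 TPM in APOE_H, again with large spread inside each group.

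KA_L was compared with CTRL_L to ask what KA changed. KA_H was compared with CTRL_L as well, but these groups differ in both treatment and letter, whose parts cannot be told apart without an untreated H group. In both comparisons as tested here, the only gene of the 39 that passed was Lpl, lipoprotein lipase, which frees fatty acids from lipoproteins and is known to rise in activated microglia. Its count of 1 of 34 stands beside 0.571% of all entries called in KA_L against CTRL_L (100 entries) and 0.377% in KA_H against CTRL_L (66 entries). Lpl was at 0.35, 0.08 and 0.97 TPM in CTRL_L. The KA libraries read 51.7, 24.2 and 26.4 TPM in KA_L and 29.8, 24.3 and 32.1 TPM in KA_H. The APOE libraries read 42.2, 21.4 and 33.01 TPM in APOE_L and 129, 41.3 and 152 TPM in APOE_H. All 12 treated libraries lay above all 3 untreated ones, and Lpl passed the filter on low values through the treated libraries alone. The log2 fold change was 4.54 (SE 0.85, adjusted p = 0.0278) in KA_L and 4.38 (SE 0.85, adjusted p = 0.0375) in KA_H, both against CTRL_L. With the 6 libraries compared fitted alone, the adjusted p was 0.630 and 0.345. It was 0.0538 for KA_L without CTRL_L replicate 2 and 0.0695 without KA_L replicate 1, and 0.0546 to 0.125 for KA_H, whichever of its 6 libraries was left out. Marker sums of some other cell types were lower in KA_L than in CTRL_L: the summed level was 14.99 to 70.8 TPM against 103 to 185 TPM for oligodendrocytes, 138 to 159.8 TPM against 187 to 334 TPM for astrocytes and 0.15 to 0.96 TPM against 2.50 to 66.5 TPM for neurons. Within the oligodendrocyte sum, only Mbp was lower in KA_L without overlap, at 8.24 to 44.5 TPM against 75.2 to 143 TPM in CTRL_L. Mag and Cnp overlapped. The neuron sum of CTRL_L was mainly Snap25 in replicate 1 (8.45 TPM) and Syt1 in replicate 2 (66.4 TPM), and each neuron marker overlapped with KA_L. Within the astrocyte sum, Slc1a2 and Aldoc were lower in KA_L. Slc1a3 was higher there, at 138 to 157 TPM against 81.3 to 129 TPM in CTRL_L. The 7 choroid plexus markers summed to 139 to 38772 TPM in CTRL_L (median 23649) and 57.6 to 1281 TPM in KA_L (median 166), which overlapped. The part of these markers in the Lpl difference was not tested.

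The remaining uptake and binding genes were less regular. Fabp5, a fatty acid binding protein of glia and epithelia, was at 0, 6.81 and 0 TPM in CTRL_L, 0.12, 41.3 and 255 TPM in KA_L and 33.6, 37.05 and 43.2 TPM in APOE_L. It was at 209.8, 98.7 and 111 TPM in KA_H and 37.2, 102 and 119 TPM in APOE_H, above all 3 CTRL_L libraries in each case. In KA_H against CTRL_L its log2 fold change was 6.07 with an adjusted p of 0.0996, and 6.45 with an adjusted p of 0.0457 after upper-quartile scaling. In KA_L against CTRL_L it passed only without KA_L replicate 1 (log2 fold change 5.71, adjusted p = 0.0313). Fabp3, the heart-type binding protein, was listed at 0 in KA_L replicate 1 and APOE_L replicate 1 and otherwise ran from 0.09 to 260.1 TPM. It passed no test. Hilpda, an inhibitor of adipose triglyceride lipase that hypoxia and lipid loading induce, was listed at 0 in all 3 CTRL_L libraries and read 84.5, 47.00 and 0 TPM in KA_L and 0, 17.3 and 36.5 TPM in KA_H. In the APOE groups it was at 6.54, 0 and 0 TPM in APOE_L and 14.7, 0 and 22.1 TPM in APOE_H. The KA_L values overlapped those of CTRL_L at 0, and the log2 fold change was 4.001 with an adjusted p of 0.407.

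H libraries were compared with L libraries in each condition and over both. Elovl6 rose and Acaca fell in KA_H against KA_L, 2 of 34 genes beside 1.49% of all entries. Plin3 and Acsl3 rose and Acaca fell in APOE_H against APOE_L, 3 of 34 beside 6.15%. Averaged over KA and APOE, Plin3, Cd36, Acsl3 and Elovl6 rose and Acaca fell, 5 of 34 beside 10.2% of all entries, 1782 of 17505. The set's share of calls was thus near that of the whole table in the comparison with most calls. The median log2 fold change of the 34 genes was 0.76 in this averaged comparison, against 0.32 over all entries, with 27 genes above 0 and 7 below. Over all entries 58.5% were above 0. In APOE_H against APOE_L it was 1.86, against 0.54 over all entries. The median over all entries moved from 0.32 to -0.14 with quantile normalisation, so fold changes here are read against that shift. The directions of Plin3, Cd36, Acsl3, Elovl6 and Acaca were the same under each scaling, but the averaged call of Cd36 was lost with upper-quartile scaling and with quantile normalisation, and both calls of Acsl3 with quantile normalisation. Plin3, Cd36, Acsl3 and Elovl6 reached 1 TPM in 3 libraries only by counting H libraries, so each entered the test through the groups where it is high, and the numbers that passed are a description.

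**Figure D3:**
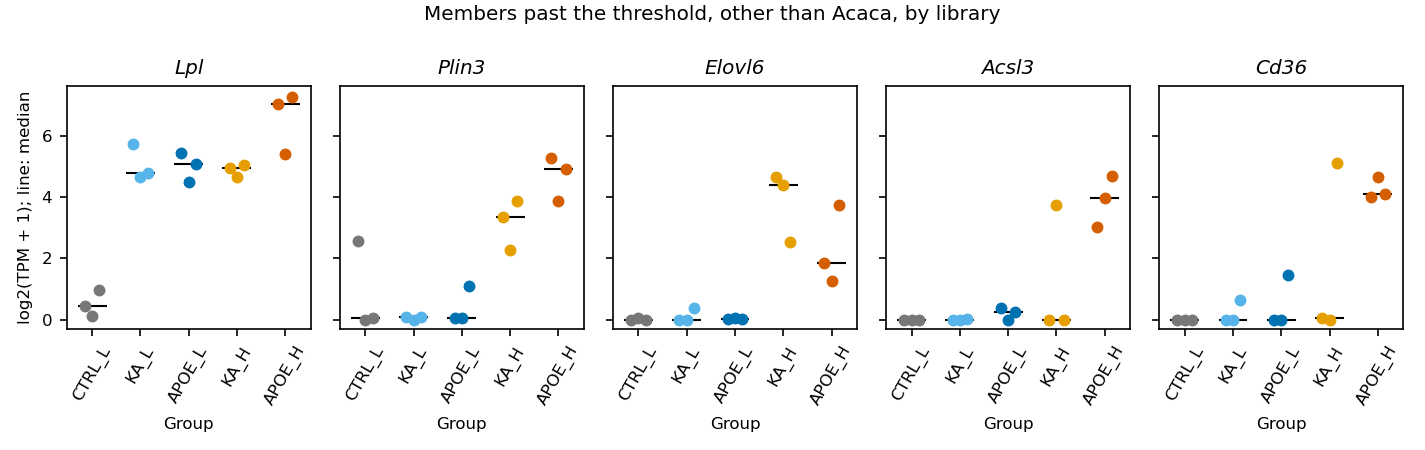
Plin3, Elovl6, Acsl3, Cd36 and Lpl by library, as log2(TPM + 1) on the vertical axis, by group, with 1 point per library. Lpl separates the 3 CTRL_L libraries from the other 12, and Plin3 and Elovl6 are high in the 6 H libraries of KA and APOE.

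Plin3, a perilipin that coats nascent droplets and is made in most tissues, was at 4.97, 0 and 0.04 TPM in CTRL_L, 0.07, 0 and 0.07 TPM in KA_L and 0.03, 0.03 and 1.12 TPM in APOE_L. It was at 9.12, 3.79 and 13.6 TPM in KA_H and 37.5, 13.8 and 28.8 TPM in APOE_H. Every H library exceeded every KA_L and APOE_L library, while CTRL_L replicate 1 lay within the KA_H range. The log2 fold change was 4.29 (SE 1.02, adjusted p = 0.0205) in APOE_H against APOE_L and 3.69 (SE 0.72, adjusted p = 0.00455) averaged. In KA_H against KA_L it was 3.09 with an adjusted p of 0.158. The APOE_H to APOE_L call was lost without APOE_L replicate 1 or 2 or APOE_H replicate 1 or 3 (adjusted p 0.0670 to 0.0721).

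Elovl6, the elongase that takes palmitate to stearate, was at 0, 0.04 and 0 TPM in CTRL_L, 0, 0 and 0.29 TPM in KA_L and 0.01, 0.04 and 0.02 TPM in APOE_L. It was at 24.2, 19.99 and 4.71 TPM in KA_H and 2.58, 1.37 and 12.4 TPM in APOE_H. Every H library was above every L library, those of CTRL_L included. The log2 fold change was 3.73 (SE 0.87, adjusted p = 0.0453) in KA_H against KA_L and 2.99 (SE 0.62, adjusted p = 0.00641) averaged, and 2.24 with an adjusted p of 0.141 in APOE_H against APOE_L. The KA_H to KA_L call was lost whichever of the 6 libraries compared was left out (adjusted p 0.0602 to 0.128) and with no filter on low values (0.104). In KA_H against CTRL_L, Elovl6 gave 3.84 with an adjusted p of 0.0746, and passed with a pseudocount of 0.1 (0.0401) or upper-quartile scaling (0.0369).

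Acsl3, an acyl-CoA synthetase that sits on growing droplets, was at 0 in all 3 libraries of CTRL_L, 0, 0 and 0.02 TPM in KA_L and 0.29, 0 and 0.19 TPM in APOE_L. It was at 0, 12.3 and 0 TPM in KA_H and 7.08, 14.5 and 24.96 TPM in APOE_H. Only KA_H replicate 2 among the KA libraries was above 0.02 TPM, while all 3 APOE_H libraries were at 7.08 TPM or more. The log2 fold change was 3.68 (SE 0.93, adjusted p = 0.0273) in APOE_H against APOE_L and 2.46 (SE 0.66, adjusted p = 0.0245) averaged. With APOE_L replicate 1, 2 or 3 or APOE_H replicate 2 or 3 left out, the first had an adjusted p of 0.0521 to 0.0893, and without APOE_L replicate 2 the second had 0.0541. With no filter on low values the adjusted p was 0.114 and 0.101. Without KA_H replicate 2 alone, Acsl3 also passed in APOE_H against KA_H (log2 fold change 3.89, adjusted p = 0.0358). Cd36, a scavenger receptor that takes up fatty acids and oxidised lipoproteins, was at 0 in all 3 libraries of CTRL_L, 0, 0 and 0.54 TPM in KA_L and 0, 0 and 1.73 TPM in APOE_L. It was at 0.03, 0 and 33.7 TPM in KA_H and 15.01, 24.4 and 15.97 TPM in APOE_H. Its KA_H value thus rested on replicate 3, and its averaged log2 fold change of 2.64 (SE 0.81, adjusted p = 0.0478) lost its call in 14 of 19 other settings, among them 9 of the 12 that left out 1 library (all but KA_H replicates 1 and 2 and APOE_L replicate 3), with adjusted p up to 0.154. Without KA_H replicate 3, Cd36 passed in APOE_H against KA_H (log2 fold change 4.23, adjusted p = 0.0285).

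Other genes were high in H in part of the libraries and did not pass the test. Pnpla2, adipose triglyceride lipase, was at 1.21, 0 and 1.81 TPM in APOE_L and 51.5, 35.3 and 84.1 TPM in APOE_H, a log2 fold change of 4.89 with an adjusted p of 0.0603. Its other libraries were at 44.1, 3.63 and 0.12 TPM in CTRL_L, 0, 27.3 and 0.91 TPM in KA_L and 0.25, 4.04 and 7.98 TPM in KA_H, so CTRL_L replicate 1 reached the APOE_H level. Bscl2 encodes seipin, a protein of the site where droplets form, and was at 51.9, 26.3 and 4.08 TPM in CTRL_L, 48.3, 36.02 and 0.25 TPM in KA_L and 0.09, 50.7 and 32.5 TPM in KA_H. It was at 0.04, 0.22 and 35.6 TPM in APOE_L and 155, 87.4 and 87.5 TPM in APOE_H, and APOE_H against APOE_L gave 4.89 with an adjusted p of 0.107. Dgat1, which makes triglyceride from diacylglycerol, was at 0, 0.02 and 0.24 TPM in APOE_L and 51.9, 28.3 and 20.99 TPM in APOE_H, a log2 fold change of 4.91 with an adjusted p of 0.109. CTRL_L and KA held both zeros and high values of Dgat1, with 0, 0 and 82.6 TPM in CTRL_L, 0.07, 2.49 and 56.2 TPM in KA_L and 0, 5.62 and 21.5 TPM in KA_H.

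Plin2, the perilipin most used as a mark of droplets in glia, was at 41.2, 49.1 and 9.52 TPM in CTRL_L, 0.13, 184 and 19.3 TPM in KA_L and 14.4, 12.2 and 32.6 TPM in KA_H. In the APOE groups it was at 63.3, 0.14 and 38.4 TPM in APOE_L and 85.95, 72.1 and 13.1 TPM in APOE_H. The groups overlapped throughout, and KA_L held both the lowest and the highest library of all 15. Averaged over KA and APOE, H against L gave a log2 fold change of 0.94 with a 95% interval of -1.56 to 3.44. APOE against KA gave 0.53 with an interval of -1.97 to 3.02. Scd2, the main stearoyl-CoA desaturase of brain, was steadier, between 22.3 and 144 TPM, with 105, 132 and 55.4 TPM in CTRL_L, 48.9, 63.6 and 22.3 TPM in KA_L and 71.1, 74.7 and 79.8 TPM in KA_H. It was at 62.3, 57.1 and 88.1 TPM in APOE_L and 88.2, 63.1 and 144 TPM in APOE_H, and H against L gave 0.65 with an interval of -0.35 to 1.64.

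More genes of these libraries were detected in H than in L. Of the 39, the 3 libraries of CTRL_L held 18 to 21 at 1 TPM or more, those of KA_L 16 to 22, those of APOE_L 18 to 26, those of KA_H 27 to 30 and those of APOE_H 31 to 33. Over all entries the mean number at 1 TPM or more was 10890.0 ± 256, 10843 ± 1114, 10672 ± 539.98, 13461 ± 236 and 14026 ± 1337 in the same order (SD, n = 3 each). Markers of other cell types also differed between H and L. The 7 choroid plexus markers summed to 57.6 to 1281 TPM in KA_L and 126 to 297 TPM in APOE_L, against 33033 to 41049 TPM in KA_H and 38206 to 58584 TPM in APOE_H, where all 7 reached 1 TPM in every library, and CTRL_L ranged from 139 to 38772 TPM. The astrocyte marker sum was lower in H without overlap, at 138 to 159.8 TPM in KA_L and 133 to 212 TPM in APOE_L, against 43.9 to 70.7 TPM in KA_H and 75.03 to 92.3 TPM in APOE_H. Slc1a3 alone was lower in KA_H (33.5 to 51.2 TPM) than in KA_L (138 to 157 TPM), but overlapped between APOE_H (43.9 to 76.0 TPM) and APOE_L (41.5 to 149 TPM). In APOE_L replicate 1, where Slc1a3 was at 41.5 TPM, Slc4a4 read 116 TPM and Aqp4 53.5 TPM. Aldoc was at most 1.92 TPM in APOE_L and 0, 47.95 and 0 TPM in APOE_H. The mural and fibroblast marker sum was lower in KA_H (0.56 to 58.8 TPM) than in KA_L (283 to 641 TPM), and overlapped between APOE_H (29.5 to 142 TPM) and APOE_L (1.68 to 453 TPM). The KA difference was that of Pdgfrb, and no other marker of this list passed 0.45 TPM in KA_L or KA_H. Red cell markers were higher in KA_H (366 to 3991 TPM) than in KA_L (80.95 to 156 TPM), and overlapped between APOE_H (43.7 to 724 TPM) and APOE_L (0.10 to 7189 TPM). Microglia markers were higher in APOE_H (11448 to 18671 TPM) than in APOE_L (8239.8 to 10005.5 TPM). The border macrophage marker sum was higher in KA_H (203 to 566 TPM) than in KA_L (3.81 to 26.1 TPM), and overlapped between APOE_H (92.2 to 488 TPM) and APOE_L (108 to 269 TPM). Mrc1, Pf4 and Ms4a7 separated KA_H from KA_L, while Cd163, F13a1 and Lyve1 overlapped, with Lyve1 highest in KA_L (25.2 TPM). The endothelial marker sum was higher in APOE_H (99.9 to 229 TPM) than in APOE_L (3.21 to 96.9 TPM). It overlapped between KA_H (92.3 to 825 TPM) and KA_L (40.6 to 223 TPM), and was at 84.1 to 166 TPM in CTRL_L. Within this sum, Flt1, Ly6c1, Itm2a and Slco1a4 were higher in APOE_H than in APOE_L without overlap. Pecam1, above 0 in all 15 libraries, was not: it overlapped, with at most 12.51 TPM in APOE_H and up to 72.55 TPM in APOE_L. Neutrophil markers were listed at 0 in KA_L and summed to 326 to 1284 TPM in KA_H. In the APOE groups they were high only in APOE_H replicate 2 (1150.03 TPM). The part of detection and of these markers in the differences of Plin3, Elovl6, Acsl3, Cd36 and Acaca was not tested.

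**Figure D4:**
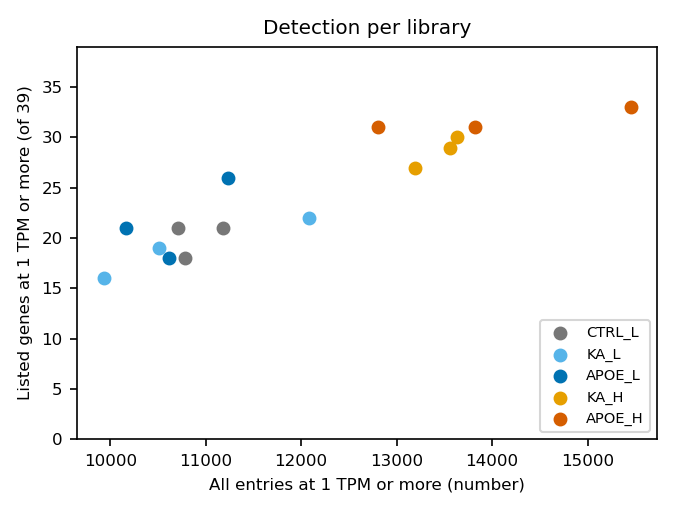
Number of the 39 genes at 1 TPM or more (vertical axis) against the number of all table entries at 1 TPM or more (horizontal axis), with 1 point per library, coloured by group. KA_H and APOE_H hold 27 to 33 of the 39 genes, against 16 to 26 in the L groups.

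APOE and KA libraries were compared to ask what the APOE condition changed. In APOE_H against KA_H, Acaca alone fell, 1 of 34 genes beside 0.531% of all entries. None of the 34 passed in APOE_L against KA_L (0.0457% of entries called), in APOE against KA averaged over L and H (0.0171%) or in the interaction (0.0457%). At an unadjusted p under 0.05, limma gave 2, 4 and 6 genes in these 3 comparisons, beside 1373, 1440 and 1456 entries. The 34 genes had a median log2 fold change of -0.08 in APOE_L against KA_L and 0.73 in APOE_H against KA_H, against -0.04 and 0.25 over all entries. The averaged Acaca difference was -0.95 (SE 0.16) with an adjusted p of 0.0679. It passed the test with a pseudocount of 0.1 (adjusted p = 0.0258), upper-quartile scaling (0.0436) or quantile normalisation (0.0286). Lpl gave -0.05 in APOE_L against KA_L, with a 95% interval of -1.85 to 1.76, and 1.68 in APOE_H against KA_H with an adjusted p of 0.629.

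Lpin2, a phosphatidate phosphatase that yields diacylglycerol, was at 51.6, 56.6 and 79.6 TPM in CTRL_L, 64.4, 75.6 and 23.4 TPM in KA_L and 23.3, 16.1 and 21.9 TPM in KA_H. It was at 0.85, 5.29 and 11.7 TPM in APOE_L and 21.4, 7.27 and 38.3 TPM in APOE_H. All 3 APOE_L libraries were below all KA_L libraries, and the averaged log2 fold change of -1.68 had an adjusted p of 0.524. Fads1, the delta-5 desaturase, was at 1.20, 4.77 and 8.66 TPM in KA_H and 59.3, 44.8 and 71.4 TPM in APOE_H, without overlap, and its log2 fold change of 3.56 had an adjusted p of 0.334. Its L libraries were at 0, 17.1 and 3.00 TPM in CTRL_L, 23.4, 3.51 and 21.6 TPM in KA_L and 18.4, 7.12 and 5.78 TPM in APOE_L. Mlxipl, which encodes ChREBP, the carbohydrate-responsive activator of lipogenic genes, was at 58.5, 32.9 and 77.01 TPM in CTRL_L, 45.3, 66.2 and 52.3 TPM in KA_L and 16.1, 17.9 and 24.1 TPM in KA_H. It was at 65.99, 20.4 and 38.4 TPM in APOE_L and 97.1, 66.5 and 62.4 TPM in APOE_H. The KA_H libraries were all below those of APOE_H, with a log2 fold change of 1.90 and an adjusted p of 0.451. Srebf1, which encodes the lipogenic factor SREBP-1, ran from 0 to 47.8 TPM and passed no test.

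**Figure D5:**
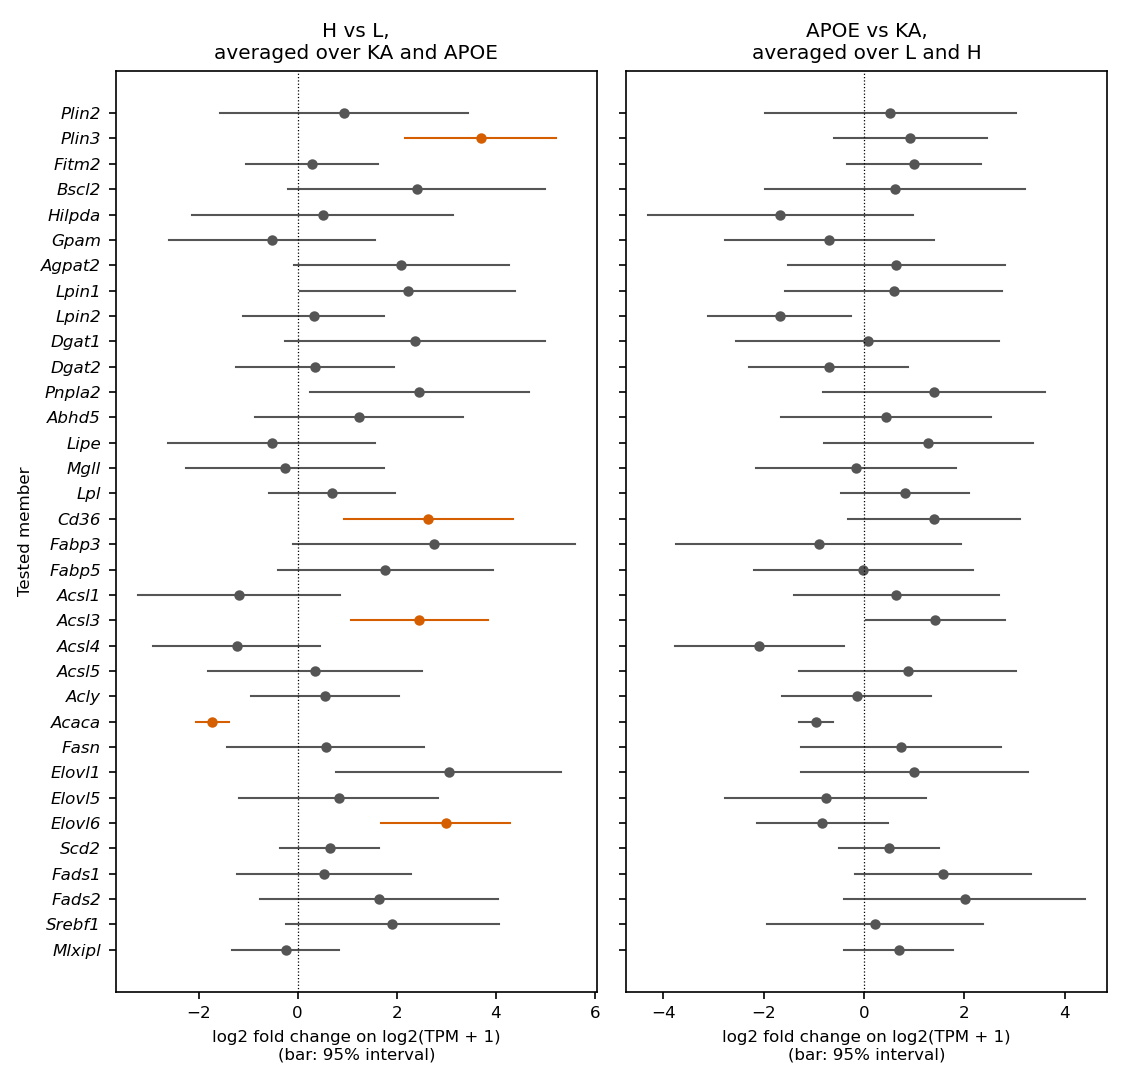
Log2 fold change of each of the 34 tested genes with its 95% interval (horizontal axis, log2 scale) for H against L averaged over KA and APOE and for APOE against KA averaged over L and H. Intervals of most genes reach across 0, and the Acaca intervals are the narrowest.

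The precision of a single gene was low. The median half-width of the 95% interval over the 34 genes was 2.86 log2 units for a pair of groups, 2.02 for an averaged comparison and 4.05 for the interaction, so a difference of a few log2 units in a typical gene of the set could not be separated from the spread. Several abundant genes show that spread within a group. Elovl1, an elongase of saturated very long chains, was at 150.4, 146 and 108 TPM in CTRL_L, 161, 0.98 and 0.03 TPM in KA_L and 125, 83.3 and 81.3 TPM in KA_H. It was at 70.6, 1.54 and 68.2 TPM in APOE_L and 151, 96.6 and 101 TPM in APOE_H, with 2 KA_L libraries and 1 APOE_L library far below the rest and an averaged H to L log2 fold change of 3.05 (adjusted p = 0.0826). Without KA_L replicate 1, the high library of that group, it was 4.18 (adjusted p = 0.00573), and Elovl1 also passed in KA_H against KA_L (6.06, adjusted p = 0.0323) and, lower, in KA_L against CTRL_L (-6.55, adjusted p = 0.0224). Quantile normalisation gave an averaged 3.10 with an adjusted p of 0.0497. Mgll, monoacylglycerol lipase, which in brain also degrades an endocannabinoid, was at 102, 45.6 and 152 TPM in CTRL_L, 166, 59.9 and 2.92 TPM in KA_L and 52.5, 33.8 and 26.7 TPM in KA_H. It was at 120.3, 107 and 3.81 TPM in APOE_L and 48.4, 27.7 and 11.1 TPM in APOE_H and passed no test. Lpin1, a paralogue of Lpin2, was at 131, 32.2 and 0.14 TPM in CTRL_L, no more than 0.54 TPM in KA_L, and ran from 0 to 17.0 TPM in the other 9 libraries.

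The acyl-CoA synthetases other than Acsl3 passed no test with all 15 libraries. Acsl1, the main synthetase of fat and liver, was at 18.6, 23.7 and 42.5 TPM in CTRL_L, 105, 0.04 and 92.5 TPM in KA_L and 23.3, 32.7 and 6.26 TPM in KA_H. It was at 56.4, 84.1 and 53.7 TPM in APOE_L and 18.7, 8.60 and 16.5 TPM in APOE_H, and all 3 APOE_H libraries were below all APOE_L libraries. Without KA_L replicate 2, its low library, Acsl1 passed in H against L averaged (-2.29, adjusted p = 0.0279). Acsl4, which prefers arachidonate, ran from 0 to 101 TPM, with an averaged APOE to KA log2 fold change of -2.08 (adjusted p = 0.516). Acsl5 ran from 1.08 to 86.5 TPM. Of the genes not yet described, Gpam, the first enzyme of glycerolipid synthesis, was below 5 TPM except for 143 TPM in KA_L replicate 1. Agpat2 ran from 0 to 34.5 TPM, Dgat2 from 0 to 10.3 TPM, Fitm2 from 0 to 9.89 TPM, Abhd5, the coactivator of Pnpla2, from 0 to 34.0 TPM, Lipe, hormone-sensitive lipase, from 0.01 to 95.5 TPM, Elovl5 from 0.23 to 99.5 TPM and Fads2 from 0 to 37.1 TPM. None of these passed a test.

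Read by role in H against L averaged over KA and APOE, 1 of 5 tested droplet proteins rose (Plin3), 1 of 4 uptake genes (Cd36), 1 of 4 activation genes (Acsl3) and 1 of 6 elongation and desaturation genes (Elovl6), and 1 of 3 synthesis genes fell (Acaca). None of the 6 glycerolipid synthesis genes, the 4 lipolysis genes or the 2 transcription factors passed. A further list of 80 genes of the same pathways held 57 that were tested. In H against L averaged, 15 of these 57 rose and none fell, beside 10.2% of all entries called, 1352 higher and 430 lower. Of the 15, 8 were among the 16 tested genes of synthesis and elongation. These were Slc25a1, the citrate carrier, Me1, malic enzyme, which supplies NADPH, Mecr of mitochondrial fatty acid synthesis, the elongase Elovl7, the other elongation enzymes Hsd17b12, Tecr and Hacd4, and Fads3. The others were Rab18, Agpat1, Agpat3, Slc27a1, Acsl6, Insig2 and Thrsp. Of these 15 calls, 7 (Me1, Elovl7, Hsd17b12, Tecr, Fads3, Insig2 and Thrsp) were kept whichever of the 12 libraries compared was left out, and the other 8 were lost for at least 1 of them (adjusted p up to 0.109). Among the 7, Elovl7 and Hsd17b12 lost the limma call with no filter on low values (adjusted p 0.0540 and 0.0592). Me1, Elovl7, Fads3, Acsl6 and Agpat1 reached 1 TPM in 3 libraries only by counting H libraries. These genes thus entered the test through the groups where they are high, and the number that passed is a description. The median log2 fold change of the 57 was 1.55, against 0.32 over all entries.

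Tecr, the last enzyme of the elongation cycle, was at 397, 373 and 230.3 TPM in CTRL_L, 57.5, 4.22 and 35.9 TPM in KA_L and 349.6, 403 and 508 TPM in KA_H. It was at 409.8, 94.5 and 101 TPM in APOE_L and 516, 916 and 700.1 TPM in APOE_H. The 3 KA_L libraries were below all others. Tecr fell in KA_L against CTRL_L by 3.86 on the log2 scale (adjusted p = 0.0363) and rose by 4.22 in KA_H against KA_L (adjusted p = 0.0142). Insig2, which retains the SREBP escort in the endoplasmic reticulum, and Thrsp, a lipogenic protein of liver and fat, were the other 2 of 57 genes that fell in KA_L against CTRL_L, with log2 fold changes of -5.17 and -5.59 (adjusted p 0.0493 and 0.0376). These 3 of 57 stand beside 0.571% of all entries called, 30 higher and 70 lower. They also stand beside the lower oligodendrocyte, astrocyte and neuron marker sums of KA_L given above, where Slc1a3 went the other way. Choroid plexus marker sums, also given above, overlapped but reached 38772 TPM in CTRL_L against at most 1281 TPM in KA_L. The part of these markers was not tested. Thrsp was at 65.03, 47.6 and 35.7 TPM in CTRL_L, 0, 0.05 and 0 TPM in KA_L and 42.3, 12.1 and 17.02 TPM in KA_H. These 3 calls were all lost when the 6 libraries were fitted alone (adjusted p 0.533 to 0.659) and whichever of the 3 CTRL_L libraries was left out (adjusted p 0.0541 to 0.122). Insig2 and Thrsp were also not called without KA_L replicate 1 or 3. Fads3 rose beside Tecr in KA_H against KA_L, and Agpat3, Slc27a1, Me1, Elovl7 and Hsd17b12 rose in APOE_H against APOE_L. These 2 and 5 of 57 genes stand beside 1.49% and 6.15% of all entries called. Me1 was listed at 0 in all 3 APOE_L libraries and was at 21.3, 13.9 and 42.5 TPM in APOE_H. Without 1 library the Fads3 call in KA_H against KA_L was lost for each of the 6 libraries and the Tecr call for KA_H replicate 3, and each of the 5 calls in APOE_H against APOE_L was lost for at least 4 of the 6. In the remaining 5 comparisons limma called none of the 57. At an unadjusted p under 0.05 it gave 3 to 7 of them, beside 1373 to 1830 of all 17505 entries.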

How the data were processed

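RNA was extracted with Trizol and total RNA went into TruSeq libraries, per the labels' protocols. Alignment was with STAR and the build is named GRCh38, a human assembly, per the submitters' processing notes, while the identifiers are mouse genes. For quantification tool, annotation and strand setting the entry is: not given in the sources used here. Values deposited by the authors are TPM, which keep no depth, so no counting error can be given. Symbols were taken from GENCODE M21 for 52083 of 55416 Ensembl identifiers, and the other 10548 entries were assembled loci. Groups come from the library names.

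The main test was limma 3.58.1 in R 4.3.3 (trend) on log2(TPM + 1), with 1 mean per group over 15 libraries, 10 residual degrees of freedom and 9 comparisons, after a filter of 1 TPM in at least 3 libraries. The pipeline was tested on simulated data. Alternatives changed the pseudocount, filter, scaling, libraries or replicate block. Among the 39 genes, values are printed in every library for those called in any comparison, for up to 3 of the highest per role and for Fads1. The other pathway genes are given by counts and names, with values for a few chosen after they were seen. The genes and lists were chosen with earlier results of these data known.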

Additional observations from a re-analysis of the deposited data

Results flagged for a closer look

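Acly, ATP citrate lyase, was singled out because its libraries separated in opposite directions in the 2 letters. All 3 APOE_L libraries (8.60 to 12.4 TPM) were below all 3 KA_L libraries (23.6 to 69.9 TPM), and all 3 APOE_H libraries (40.4 to 59.4 TPM) were above all 3 KA_H libraries (9.69 to 27.3 TPM). Neither difference passed limma's test, with log2 fold changes of -1.67 (adjusted p = 0.774) in APOE_L against KA_L and 1.37 (adjusted p = 0.780) in APOE_H against KA_H. The interaction was 3.04 on the log2 scale (SE 1.41, unadjusted p = 0.0466) and did not pass after adjustment over all entries (adjusted p = 0.593). Other genes of the 39 had a lower unadjusted interaction p without such a separation in opposite directions, among them Acaca.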

How the results depend on the processing

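No call named in the report changed direction under any alternative. Acaca, Plin3 and Elovl6 in H against L averaged, and Acaca in APOE_H against APOE_L, were called in all settings. In APOE_L against KA_L and in the interaction no gene of the 39 was called in any setting. Numbers of the 39 genes called moved as follows. In KA_L against CTRL_L, 1 became 0 with quantile normalisation and 0 with only the groups compared, and ran from 0 to 2 without 1 library (Fabp5 and Elovl1 in place of Lpl without KA_L replicate 1). In KA_H against CTRL_L, 1 became 2 with a pseudocount of 0.1 (Elovl6 added), 3 with upper-quartile scaling (Fabp5 and Elovl6 added), 0 with only the groups compared and 0 with the replicate block, and was 0 whichever library was left out. In KA_H against KA_L, 2 became 0 without the filter, 1 with upper-quartile scaling, 1 with quantile normalisation, 0 with only the groups compared and 1 with the replicate block, and ran from 0 to 1 without 1 library. In APOE_H against APOE_L, 3 became 6 with only the groups compared (Dgat1, Pnpla2 and Cd36 added), was 2 without the filter and with quantile normalisation (Acsl3 lost), and ran from 1 to 2 without 1 library. In H against L averaged, 5 became 3 without the filter (Acsl3 and Cd36 lost), was 4 with a pseudocount of 0.1, upper-quartile scaling or only the groups compared (Cd36 lost) and 4 with quantile normalisation (Acsl3 and Cd36 lost, Elovl1 gained), and ran from 3 to 5 without 1 library. In APOE_H against KA_H, 1 became 0 without the filter and 0 with only the groups compared, and ran from 1 to 2 without 1 library. In APOE against KA averaged, 0 became 1 (Acaca) with a pseudocount of 0.1, upper-quartile scaling or quantile normalisation, and was 0 whichever library was left out. Same-numbered libraries did not deviate together (residual correlations of -0.0263 to 0.0365 over 30 pairs), so no pairing by number was seen. With values this scattered, that cannot exclude a shared source of same-numbered libraries, which the labels do not state.

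Over all entries, leaving out the filter took the calls from 100 to 50 in KA_L against CTRL_L, 66 to 33 in KA_H against CTRL_L, 260 to 100 in KA_H against KA_L, 1076 to 538 in APOE_H against APOE_L, 1782 to 1048 in H against L averaged, 93 to 4 in APOE_H against KA_H, 8 to 13 in APOE_L against KA_L, 3 to 8 in APOE against KA averaged and 8 to 3 in the interaction. With only the groups compared the numbers were 0, 3 and 3 in the first 3 of these, 0 in APOE_H against KA_H, 1 in APOE_L against KA_L, 6 averaged and 18 in the interaction. Upper-quartile scaling gave 62, 139 and 394 in the first 3, 6 averaged and 24 in the interaction. Quantile normalisation gave 25 in APOE_H against KA_H, 9 averaged and 0 in the interaction. The replicate block gave 19 in KA_H against CTRL_L, 61 in APOE_H against KA_H, 4 in APOE_L against KA_L and 1 in the interaction, and the filter of 5 TPM gave 43 in APOE_H against KA_H and 13 in the interaction. Quantile normalisation also moved the split of higher and lower entries from 1352 and 430 to 1156 and 850 in H against L averaged, and from 822 and 254 to 568 and 419 in APOE_H against APOE_L. The cause of these moves was not tested, and TPM keep no depth from which a limit could be set.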
